A study of Mus musculus with 12 samples.

Results

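The 10 genes described here belong to the pancreatic acinar programme and were measured in somatic support cells of the fetal mouse gonad. They are the elastase-type proteases Cela3b, Cela1 and Cela2a, the trypsinogen gene Prss2, the carboxypeptidase gene Cpa1, the chymotrypsinogen gene Ctrb1, the lipase gene Cel, the colipase gene Clps, and Ptf1a and Rbpjl, which encode subunits of an acinar transcription complex. The set was chosen by name around Cela3b, which was selected on its rise from E11.5 to E12.5 in both sexes in an earlier reading of these same arrays. The changes between days are therefore given below as a description with no test. Tests are given for the differences between the sexes, which were not in the rule of choice. Those tests share the E12.5 values with that rise, and the members were chosen with earlier results of these data known. For Cela3b nothing is read from the difference between the day changes of the sexes, since those changes selected the gene. The 10 genes are among 17996 genes that could be named on the array, and 18 probe sets were annotated to one of them alone, 4 of these to Cela3b. One further probe set, annotated to both Cela3a and Cela3b, is listed apart.

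RNA came from pools of support cells, the lineage that gives rise to granulosa cells in the ovary and Sertoli cells in the testis, sorted from gonads of XX and XY embryos on embryonic day 11.5 (E11.5) or a day later (E12.5). The groups (XX E11.5, XY E11.5, XX E12.5 and XY E12.5) number 4, with 3 pools in each, and every pool has 1 Affymetrix expression array, hybridised after 2 rounds of RNA amplification. All 4 groups are of the transgenic mouse strain FVB.Cg-Tg(Tyr)3412ARpw that also carries Tg(Sry-EGFP)92EI, so XX and XY gonads alike carry the Tyr and the Sry-EGFP transgenes, and no group received a treatment. Whether the pools of a group were drawn from different litters is not given in the labels, and p-values therefore cover only the spread between these pools. They also do not give the gate of the sort.

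The values are log2 signals, 1 per probe set and array, and 44238 probe sets were tested. The number of arrays limits the precision, and each value is relative to its own probe set, so levels of different probe sets are not compared. Xist (1436936_s_at) averaged 12.84 and 12.91 in the XX groups against 7.23 and 7.0 in the XY groups, and the Y-linked Eif2s3y averaged 3.80 and 3.86 in XX against 11.29 and 11.09 in XY. Foxl2, a granulosa-lineage factor, averaged 11.09 in XX E12.5 against 7.79 in XY E12.5, and Sox9, a Sertoli-lineage factor, was higher in XY at both days. One array stood apart. XX E11.5 pool 2 had the highest mean of the endothelial (1.63 above the mean of all 12 arrays) and interstitial mesenchyme (1.57) marker lists and the lowest of the supporting lineage list (-0.94).

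Acinar cells of the exocrine pancreas store digestive enzymes as inactive precursors in granules and release them into the duct system. Their enzyme genes are driven largely by the complex PTF1, in which Ptf1a, a basic helix-loop-helix protein, pairs with a common E-protein and with Rbpjl. PTF1 binds a paired site that holds an E-box of the form CACCTG and a second box that contains TGGGAA on either strand. Elastases of the CELA family are serine proteases that cut after small or bulky hydrophobic residues. Despite their name, Cela3b and its neighbour and near copy Cela3a have little activity on elastin.

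Sequences upstream of Cela3b, Cela3a, Cela1 and Cpa1 are shown, and the other members with a window are given as counts. Cela3a is shown because 1 probe set is annotated to both it and Cela3b, and the _x_at probe sets of Cela3b may also bind it. Cpa1 is shown because it went the other way. The sequences are the 250 bases before the annotated start, from RefSeq on GRCm38.p6, read 5′ to 3′ on the gene's strand. Matches to CACCTG or TGGGAA on either strand are in capitals. The Cela3b window lies at chr4:137430521-137430770 on the minus strand, that of Cela3a at chr4:137409792-137410041 on the minus strand, that of Cela1 at chr15:100687921-100688170 on the minus strand and that of Cpa1 at chr6:30638968-30639217 on the plus strand.
Cela3b: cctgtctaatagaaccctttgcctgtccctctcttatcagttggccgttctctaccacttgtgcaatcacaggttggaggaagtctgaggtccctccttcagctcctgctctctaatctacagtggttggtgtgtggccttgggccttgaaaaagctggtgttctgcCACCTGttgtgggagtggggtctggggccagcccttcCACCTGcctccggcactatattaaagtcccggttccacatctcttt
Cela3a: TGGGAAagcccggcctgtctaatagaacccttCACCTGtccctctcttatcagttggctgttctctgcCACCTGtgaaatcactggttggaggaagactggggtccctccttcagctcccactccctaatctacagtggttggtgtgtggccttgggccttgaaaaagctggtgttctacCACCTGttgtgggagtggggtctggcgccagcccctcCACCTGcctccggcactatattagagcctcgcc
Cela1: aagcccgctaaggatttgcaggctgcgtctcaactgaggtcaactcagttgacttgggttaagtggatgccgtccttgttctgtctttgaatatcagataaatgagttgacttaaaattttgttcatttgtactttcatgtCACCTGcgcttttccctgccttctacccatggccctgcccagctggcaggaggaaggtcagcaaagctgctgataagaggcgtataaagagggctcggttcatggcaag
Cpa1: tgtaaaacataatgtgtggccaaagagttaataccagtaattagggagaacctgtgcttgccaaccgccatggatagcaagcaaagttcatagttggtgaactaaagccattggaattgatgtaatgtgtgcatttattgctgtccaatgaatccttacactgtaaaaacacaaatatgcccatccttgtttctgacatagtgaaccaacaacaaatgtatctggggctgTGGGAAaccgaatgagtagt
The Cela3b window held 2 matches to CACCTG, 83 and 46 bases before the start, and 0 to TGGGAA. In the Cela3a window there were 4 matches to CACCTG and 1 to TGGGAA. Aligned end to end, the Cela3b and Cela3a windows were identical at 83.3% of positions, against 47.7% for Cela3b and Cela1. The Cela1 window held 1 match to CACCTG and 0 to TGGGAA, and that of Cpa1 held 0 and 1. Of the windows not shown, those of Cela2a, Prss2 and Rbpjl each held 1 match to CACCTG and 1 to TGGGAA. The Cel window held 4 and 1, and those of Ctrb1 and Ptf1a held 0 and 1. Whether the matches bear on the signal patterns described below was not tested. Among 32851 windows of this length in RefSeq, 17.2% held CACCTG and 21.6% held TGGGAA, so a match is common and describes only these letters.

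Cela3b signal was higher at E12.5 than at E11.5 in both sexes at all 5 probe sets that carry its name. At 1415883_a_at it read 7.24, 5.34 and 6.03 in the 3 XX pools at E11.5, then 8.51, 9.11 and 9.06 a day later. The XY pools read 6.49, 7.25 and 5.84 at first and 9.79, 9.91 and 10.47 a day later. The days did not overlap in either sex, and the E11.5 pools of both sexes were spread much more widely than the E12.5 pools. The group means ± SD (n = 3) went from 6.20 ± 0.96 to 8.89 ± 0.33 in XX and from 6.53 ± 0.71 to 10.06 ± 0.36 in XY, differences of 2.69 and 3.53 on the log2 scale.

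The other probe sets gave the same order of groups with differences of unequal size. At 1437326_x_at the XX pools went from 8.29, 6.08 and 6.80 to 9.38, 10.26 and 10.05, and the XY pools from 7.82, 8.62 and 6.89 to 10.61, 11.32 and 11.49. These are differences of 2.84 in XX and 3.36 in XY. At 1435611_x_at the differences were 2.01 and 2.94, and at 1435012_x_at, shared with Cela3a, they were 3.25 and 3.65. The smallest day change was at 1415884_at, where XX went from 7.35 ± 0.26 to 8.06 ± 0.28 and XY from 7.61 ± 0.31 to 9.02 ± 0.25 (SD, n = 3), differences of 0.71 and 1.41. Over the 12 arrays, 1415884_at correlated with the other 4 probe sets at Pearson r of 0.933 to 0.964, and those 4 correlated among themselves at 0.986 to 0.999, as a description across arrays that share the same day and sex groups. The suffix _x_at marks probes that may also bind other sequences, and no probe set was annotated to Cela3a alone, so at the _x_at probe sets signal from Cela3a and from Cela3b cannot be told apart.

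**Figure D1:**
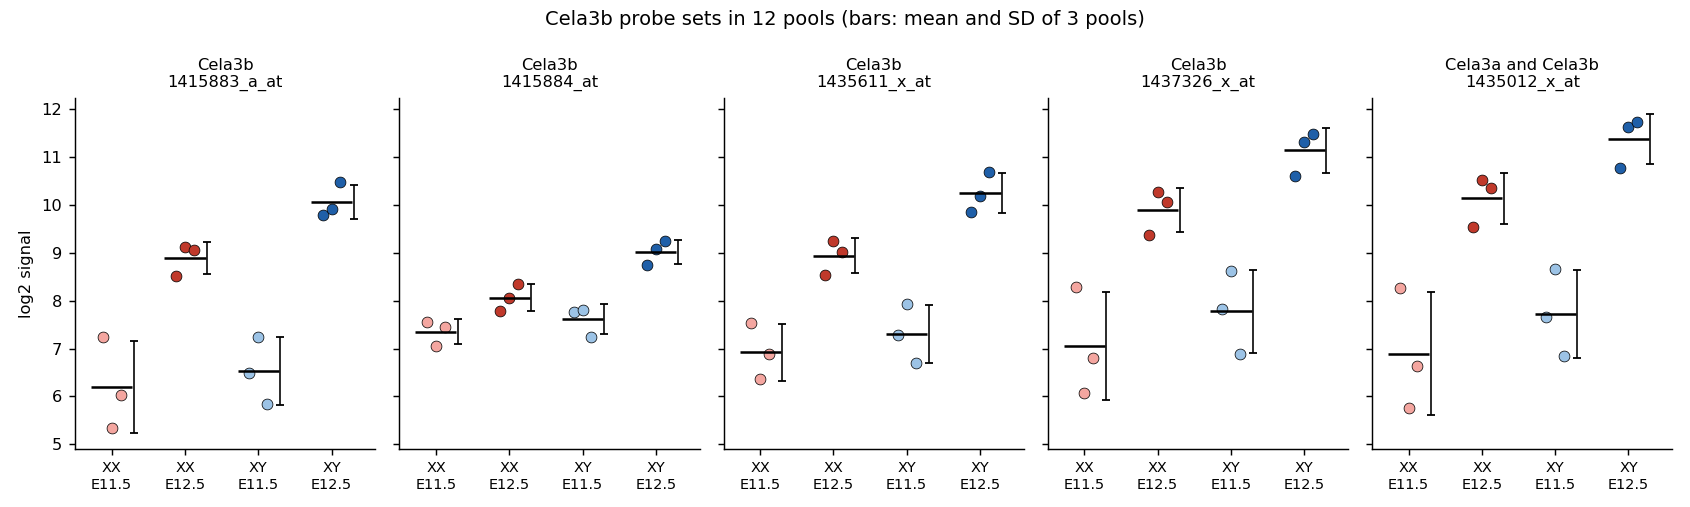
Log2 signal of the 4 Cela3b probe sets and of the probe set shared by Cela3a and Cela3b in each pool, with the horizontal line at the group mean and the bar its SD (n = 3), for XX (red) and XY (blue) at E11.5 (pale) and E12.5 (dark). In each panel the E12.5 pools lie above the E11.5 pools of their sex, and the 3 XY E12.5 pools lie above the 3 XX E12.5 pools.

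Since this rise selected Cela3b, its place among all probe sets is a description. With days not overlapping, 159 of all probe sets (0.359%) rose at least 2-fold in both sexes, among them 3 of the 18 member probe sets, all 3 of Cela3b. In limma's fit 3 member probe sets, again of Cela3b, were called between days in XX, where 3.11% of all probe sets were called, and 5 in XY, where 6.16% were, namely the 4 of Cela3b and that of Cpa1. Nothing is read from these counts, since the choice used these contrasts. Without XX E11.5 pool 2 or 3, or without XX E12.5 pool 2 or 3, the count in XX was 0. Leaving out XX E11.5 pool 2, whose Cela3b signal was the lowest of all arrays at each probe set, brought the XX difference at 1415883_a_at to 2.25 and that at 1415884_at to 0.56.

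**Figure D2:**
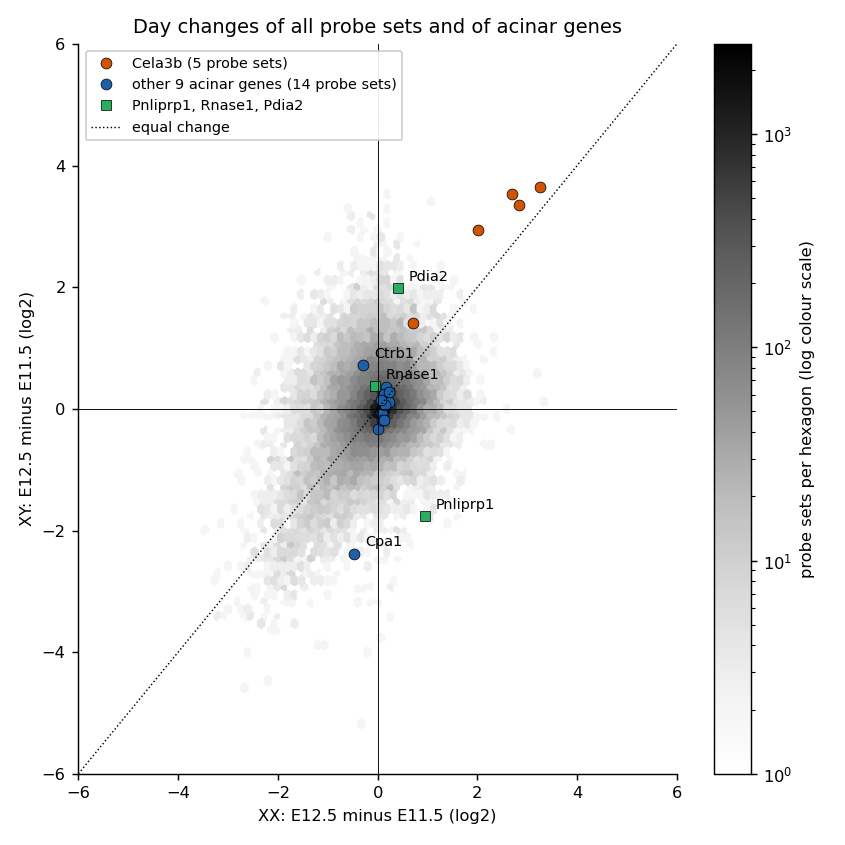
Difference between E12.5 and E11.5 (log2) in XX on the horizontal and in XY on the vertical axis, for all 44238 probe sets (grey, darker for more probe sets, log colour scale), the 5 Cela3b probe sets (orange), the 14 probe sets of the other 9 acinar genes (blue) and 3 further acinar genes (green). The Cela3b probe sets lie above 0 on both axes, 4 of them at the edge of the cloud, while 12 of the 14 blue points lie close to the origin and Cpa1 lies at -0.47 in XX and -2.38 in XY.

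Cela3b was higher in XY than in XX at E12.5 at every probe set, by 0.96 to 1.31 on the log2 scale at the 4 of its own. The pools of the sexes did not overlap at E12.5 and overlapped at E11.5. How many of all probe sets separate the sexes in this way was not counted. Such a separation therefore only describes the pools, for Cela3b and for the genes that follow. Here and below, called means that limma's p, after Benjamini-Hochberg adjustment over all 44238 tested, was under 0.05. At 1415884_at the XX E12.5 pools read 7.78, 8.05 and 8.34 and the XY E12.5 pools 8.74, 9.08 and 9.24, a difference of 0.96 ± 0.22 (SE, 1.94-fold; 95% interval 0.48 to 1.44; limma adjusted p = 0.023). The other 3 did not pass, with 1.17 ± 0.48 at 1415883_a_at (SE; limma adjusted p = 0.20), 1.31 ± 0.38 at 1435611_x_at (adjusted p = 0.066) and 1.24 ± 0.57 at 1437326_x_at (adjusted p = 0.27). The shared probe set differed by 1.24 (95% interval -0.17 to 2.65; limma adjusted p = 0.32).

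The 1 call of Cela3b between the sexes was narrow. With the pool number as a replicate block it was not made (limma adjusted p = 0.0501). It was lost without XX E12.5 pool 1 (0.82; limma adjusted p = 0.0804), XX E12.5 pool 2 (0.96; 0.0685), XY E12.5 pool 2 (0.93; 0.0662) or XY E12.5 pool 3 (0.85; 0.0885). With the spread taken from the 6 E12.5 arrays alone, which leaves out the widely spread E11.5 pools, 1415883_a_at, 1415884_at and 1435611_x_at were called (limma adjusted p = 0.0386, 0.0356 and 0.0374), and 1437326_x_at was not (0.0706). At E11.5 the XY minus XX differences were 0.26 to 0.72, none called, and their intervals reached from -0.73 to 2.00. The day change in XY minus that in XX was 0.52 to 0.93 at the 4 probe sets, which are not independent readings. None was called (smallest limma adjusted p = 0.32, at 1415884_at, 95% interval 0.03 to 1.38). This contrast is built from the day changes that selected Cela3b, so nothing is read from it.

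At E12.5, 3 of all 18 member probe sets differed between the sexes by call (2 higher and 1 lower in XY), where 7.72% of all probe sets were called. These were Cela3b 1415884_at, Ctrb1 and Cpa1. The median difference of the 18 was 0.06, beside -0.00 over all probe sets. Without XX E12.5 pool 1 or 2, or XY E12.5 pool 2 or 3, the count was 1, that of Cpa1. At E11.5, 0 of the 18 were called in limma, where 0.0678% of all probe sets were called, and the median was 0.17 beside 0.05. At an unadjusted limma p under 0.05 there were also 0 of the 18, beside 3012 of all 44238 probe sets. The day changes differed between the sexes by call at 0 of 18, where 1.75% of all probe sets were called. At an unadjusted limma p under 0.05 there were 3 of 18, beside 6468 of all 44238 probe sets.

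**Figure D3:**
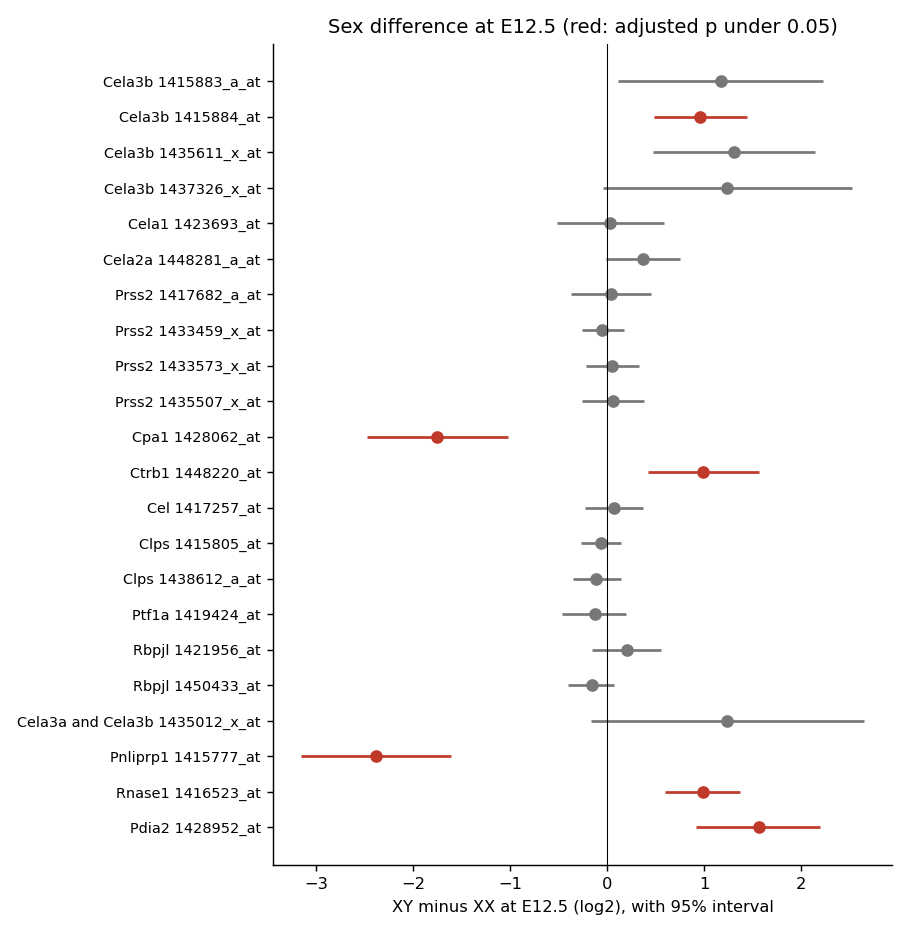
Difference between XY and XX at E12.5 (log2, horizontal axis) with its 95% interval from limma for each member probe set, the probe set shared with Cela3a and 3 further acinar genes, red where the adjusted p was under 0.05. Cpa1 and Pnliprp1 lie below 0 at -1.75 and -2.38, and the members Prss2, Cel, Clps, Ptf1a and Rbpjl lie near 0. Ctrb1, Rnase1, Pdia2 and every Cela3b probe set, the shared one included, lie above 0. Of those of Cela3b only 1415884_at is red.

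Cpa1, which encodes a carboxypeptidase that trims aromatic and aliphatic residues from peptide ends, was lower in XY than in XX at E12.5, the opposite direction to Cela3b. Its probe set 1428062_at read 11.80, 11.24 and 11.41 in XX and 11.05, 12.17 and 11.73 in XY at E11.5. At E12.5 the XX pools read 10.69, 11.09 and 11.25 and the XY pools 9.27, 9.78 and 8.74. The sexes overlapped at E11.5 and not at E12.5, and the days overlapped in XX and not in XY. XY E12.5 lay below XX E12.5 by 1.75 ± 0.33 on the log2 scale (SE, 3.36-fold lower; 95% interval of the difference -2.47 to -1.02; limma adjusted p = 0.0091). This call held in all 19 alternatives, with adjusted p from 0.0018 to 0.043. The day change was -0.47 in XX and -2.38 in XY, and the difference between them, -1.91, was not called (95% interval -2.93 to -0.89; limma adjusted p = 0.074), though it was without XY E11.5 pool 1 (-2.21; limma adjusted p = 0.0287).

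Ctrb1, a chymotrypsinogen gene, had its highest signal in XY E12.5. Its probe set 1448220_at read 7.83, 6.91 and 7.49 in XX and 7.12, 7.89 and 7.16 in XY at E11.5, and a day later 6.98, 7.17 and 7.21 in XX and 7.95, 8.35 and 8.04 in XY. The XY pools at E12.5 lay above all other pools, the nearest of which was XY E11.5 pool 2 at 7.89. XY was higher than XX at E12.5 by 0.99 ± 0.26 (SE, 1.99-fold; 95% interval 0.42 to 1.57; limma adjusted p = 0.044). This call sat at the threshold. It was lost in 8 of 12 fits that left out 1 array, with differences of 0.88 to 1.08 and limma adjusted p from 0.0509 to 0.127, and held without XX E11.5 pool 1 or 2 or XY E11.5 pool 1 or 2. Of the 7 other alternatives, 2 also lost it (limma adjusted p up to 0.0831). The days differed by -0.29 in XX and 0.72 in XY.

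The other 7 genes, with 12 probe sets, gave no call between the sexes. Their differences at E12.5 ran from -0.16 to 0.37, with a smallest limma adjusted p of 0.27, and the intervals together covered -0.52 to 0.75. Among the elastases, Cela1, whose enzyme cuts elastin, read 6.45, 7.60 and 6.64 in XX and 6.86, 6.72 and 6.60 in XY at E11.5. At E12.5 it read 7.06, 7.0 and 7.11 in XX and 7.27, 6.95 and 7.04 in XY. Its single high value at E11.5 was in XX pool 2, the pool in which Cela3b was lowest, and the sex difference at E12.5 was 0.03 (95% interval -0.52 to 0.59). Cela2a, an elastase that cuts elastin, averaged 5.72, 5.97, 5.86 and 6.22 in XX E11.5, XY E11.5, XX E12.5 and XY E12.5, a sex difference at E12.5 of 0.37 (95% interval -0.01 to 0.75; limma adjusted p = 0.27).

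The trypsinogen, lipase and colipase genes were among those not called. The 4 probe sets of Prss2, which belongs to a cluster of near-identical trypsinogen genes that 3 of them (_x_at) may also read, differed between the sexes at E12.5 by -0.05 to 0.06, with intervals from -0.37 to 0.45. Cel, the bile-salt-dependent lipase gene, averaged 5.81 ± 0.14, 5.98 ± 0.09, 6.03 ± 0.18 and 6.10 ± 0.19 (SD, n = 3) in the same order of groups. Clps, which encodes the cofactor of pancreatic lipase, stayed between 4.88 and 5.20 at 1415805_at and between 3.21 and 3.78 at 1438612_a_at over the 12 arrays.

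Neither acinar transcription factor was called. Ptf1a averaged 5.36 ± 0.11 in XX E11.5, 5.49 ± 0.17 in XY E11.5, 5.45 ± 0.19 in XX E12.5 and 5.32 ± 0.19 in XY E12.5 (SD, n = 3), with a sex difference at E12.5 of -0.13 (95% interval -0.46 to 0.19). Rbpjl, its partner in mature acinar cells, differed by 0.20 at 1421956_at and by -0.16 at 1450433_at, so its probe sets had opposite signs, neither called. For the 7 genes the day differences were 0.01 to 0.22 in XX and -0.33 to 0.36 in XY. No detection calls were used here, and whether these probe sets read more than background was not tested.

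**Figure D4:**
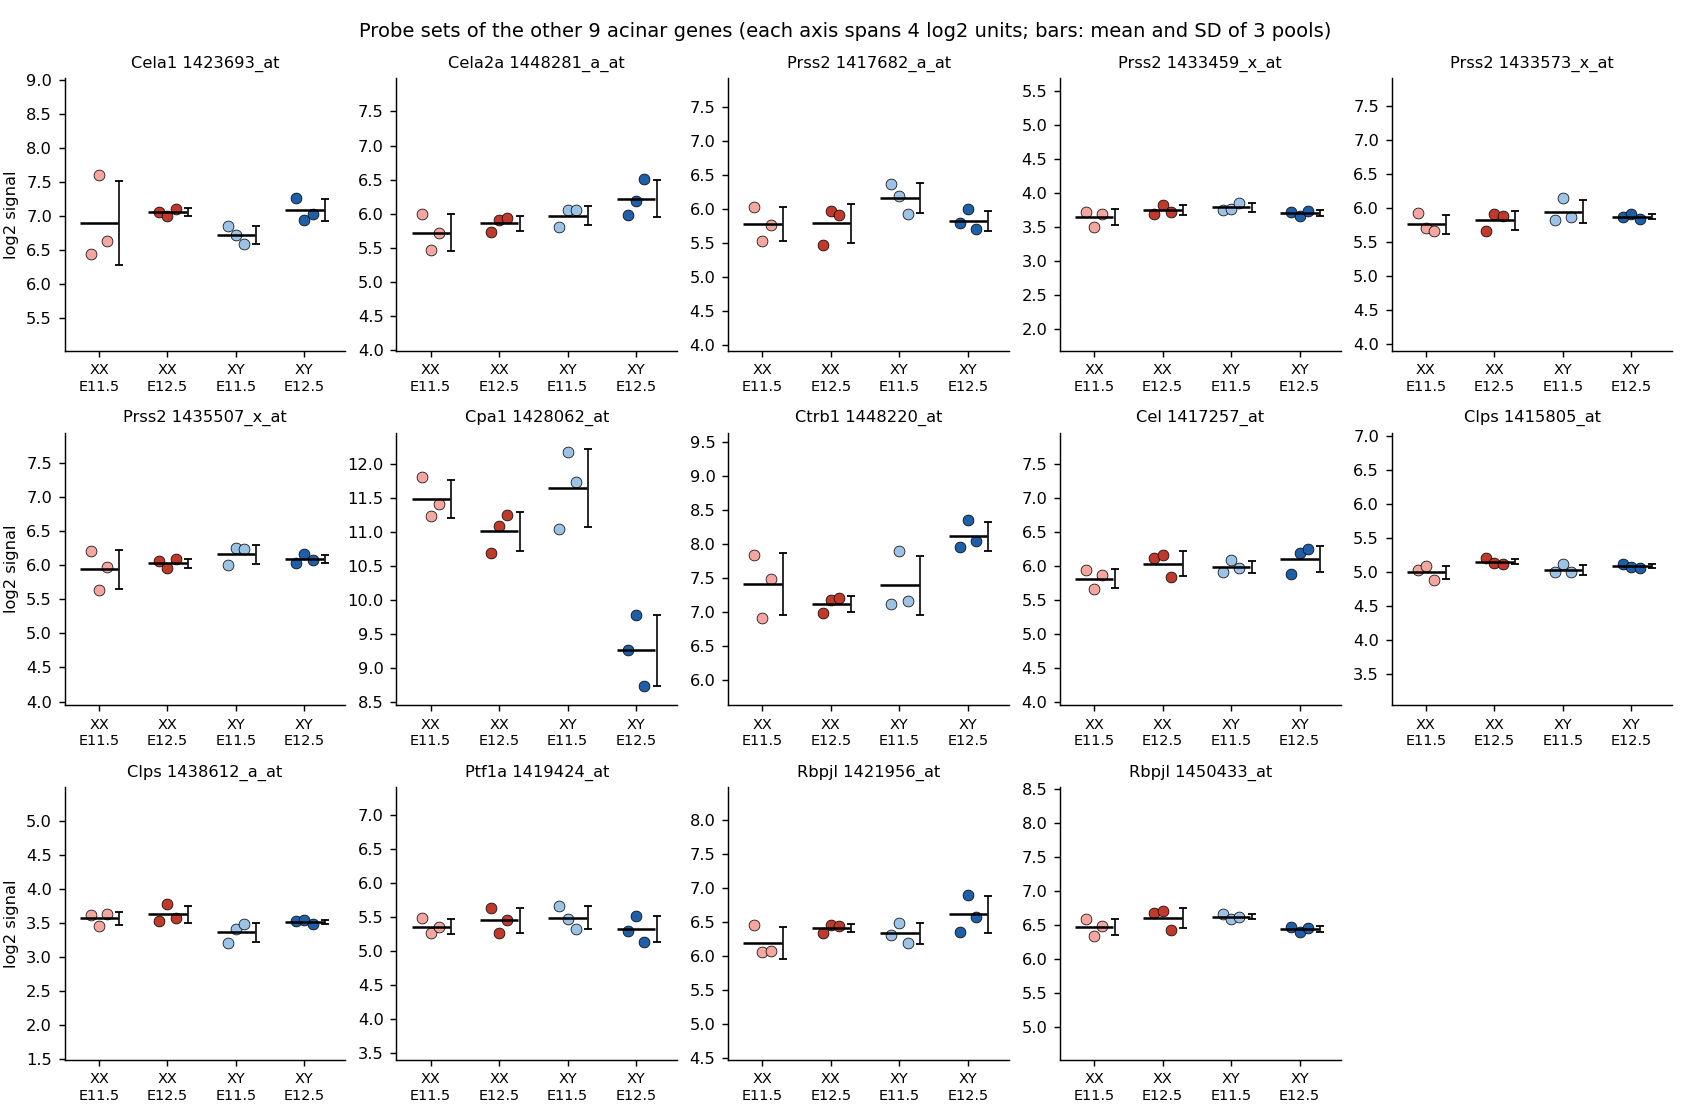
Log2 signal of the 14 probe sets of the other 9 acinar genes in each pool, every panel spanning 4 log2 units, with the group mean (line) and SD (bar, n = 3). Cpa1 lies between 8.74 and 9.78 in XY E12.5 and Ctrb1 reaches 7.95 to 8.35 there, while the groups of the other 7 genes lie close together.

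Beyond the 10 genes, a list of 38 other acinar secretory genes was measured for 28 genes by 40 probe sets. Between the sexes at E12.5, 3 of the 40 were called, 2 higher and 1 lower in XY, with a median of 0.03, a share close to the 7.72% of all probe sets. Pnliprp1, a pancreatic lipase-related gene, was lower in XY, as Cpa1 was. Its probe set 1415777_at at E11.5 read 12.04, 10.83 and 12.33 in XX and lay between 11.71 and 12.44 in XY. A day later it read 12.63, 12.84 and 12.56 in XX and 10.06, 10.59 and 10.24 in XY. All 3 XY E12.5 pools lay below every other pool, and the sex difference at E12.5 was -2.38 ± 0.35 (SE, 5.21-fold lower in XY; limma adjusted p = 0.0023), a call that held in all 19 alternatives.

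Pdia2, a disulfide isomerase of the acinar endoplasmic reticulum, was higher in XY. It averaged 6.88 ± 0.48 in XX E12.5 and 8.43 ± 0.49 in XY E12.5 (SD, n = 3), 1.56 ± 0.28 higher in XY (SE, 2.94-fold; limma adjusted p = 0.0083). Rnase1, the secreted pancreatic ribonuclease gene, was 0.99 ± 0.17 higher in XY E12.5 (SE, 1.98-fold; limma adjusted p = 0.0066). The list's other genes gave no call at E12.5, among them Ctrl (chymotrypsin-like, 0.92; adjusted p = 0.21 in limma), Spink1 (the acinar trypsin inhibitor, 0.02), Gp2 (the main granule membrane glycoprotein, 0.01) and Cckar (the cholecystokinin receptor, 0.02). None of the 40 probe sets rose at least 2-fold in both sexes without overlap, where 0.359% of all probe sets did.

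Among 20 further pancreatic transcription factors, 18 genes were measured by 40 probe sets, of which 3 were called higher and 1 lower in XY at E12.5, against 7.72% of all probe sets called in either direction. The 3 higher ones all read Sox9, which the testis and the pancreas share, and at 1451538_at its difference was 3.71 at the earlier day and 2.75 at the later (limma adjusted p = 6.9e-04 and 4.2e-04). The lower one was Gata6 1425464_at, -1.01 ± 0.23 (SE; limma adjusted p = 0.025), while its other probe sets, 1425463_at and 1443081_at, differed by -0.74 and -0.42 and were not called. The Gata6 call was lost without any 1 of the XX E12.5 pools, XY E12.5 pool 1 or XY E12.5 pool 3, with differences of -0.94 to -1.02 and limma adjusted p from 0.0711 to 0.0889. Pdx1, the factor that sets up the pancreatic bud, differed by -0.08 at 1422173_at and 0.04 at 1422174_at, and Bhlha15, which supports acinar secretion, by -0.31 at 1449233_at and -0.00 at 1418800_at. The probe sets of Rbpj, the partner of Ptf1a before Rbpjl, disagreed in sign, with 0.80 at 1454896_at, 0.16 at 1418114_at and -0.40 at 1448957_at. None of these was called.

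A list of elastase and trypsin inhibitors was measured for 13 of 17 genes by 16 probe sets. None was called between the sexes in limma at either day. At an unadjusted limma p under 0.05 there were 0 at the earlier day and 4 at the later. Over all 44238 probe sets there were 3012 and 8867. In both sexes 2 of the 16, both of Serpinb1a, rose at least 2-fold without overlap between days, where 0.359% of all probe sets did. The same held for 1 of the 33 probe sets of early gut and liver genes. Serpina1b, an alpha-1-antitrypsin gene with near-identical copies, at E12.5 read 9.06, 7.75 and 7.96 in XX and 5.82, 4.28 and 6.13 in XY at 1418282_x_at, a difference of -2.85 (95% interval -4.57 to -1.12; limma adjusted p = 0.053). Serpinb1a, an intracellular inhibitor of neutrophil elastase, differed by 1.42 at 1416318_at (limma adjusted p = 0.068) and by 0.15 at 1448301_s_at (0.85). Its day changes were 1.01 in XX and 2.86 in XY at the first and 1.18 and 1.34 at the second.

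Markers of other cell types were read beside these genes, each list as its mean deviation from the 12-array mean. Pancreatic endocrine markers, 13 of 18 genes by 22 probe sets, were called in no comparison between the sexes in limma. At an unadjusted limma p under 0.05 there were 2 of 22 at the earlier day and 1 at the later. Over all 44238 probe sets there were 3012 and 8867. The level of the endocrine markers stayed between -0.10 and 0.16 in every pool. The glucagon gene Gcg averaged 3.81 to 3.87 over the groups and the insulin gene Ins2 7.21 to 7.46. The early gut and liver list stayed between -0.26 and 0.29. Signal in these bulk pools cannot tell more cells of a type from more RNA per cell.

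Some marker lists separated some of the groups between which Cela3b differed. The supporting lineage list (15 genes) lay between -0.94 and -0.39 in XX E11.5, between 0.08 and 0.24 in XX E12.5, between -0.04 and 0.26 in XY E11.5 and between 0.22 and 0.37 in XY E12.5. The list separated the days in XX, and overlapped between the days in XY and between the sexes at E12.5. It holds genes that differ between the sexes, and at E12.5 XY was called higher at 11 of its 30 probe sets and lower at 11. The macrophage and leukocyte list (15 genes) lay between -0.13 and 0.06 in XX E12.5 and between 0.28 and 0.48 in XY E12.5. Its mean was thus higher in XY, but 0 of its 22 probe sets were called, where 7.72% of all probe sets were. At an unadjusted limma p under 0.05 there were 2 of the 22, beside 8867 of all 44238. The list at E11.5 lay between -0.35 and 0.57 in XX, overlapping XX E12.5, and between -0.91 and -0.24 in XY. In the opposite direction, the mesonephric epithelium list (7 genes) lay between 0.09 and 0.48 in XX E12.5 and between -0.58 and -0.52 in XY E12.5, and the neutrophil and mast cell list (14 genes) between 0.08 and 0.17 and between -0.22 and -0.07. By call, 1 of the 11 mesonephric probe sets and 1 of the 15 neutrophil and mast cell probe sets were lower in XY E12.5. The part of these lists in the differences of Cela3b, Cpa1 and Ctrb1 was not tested.

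By RefSeq order on GRCm38.p6, Cela3b lies beside Cela3a, and the nearest measured genes are Cdc42, Wnt4, Zbtb40, Epha8 and C1qa on one side and 1700013G24Rik, Usp48, Rap1gap, Rap1gapos and Alpl on the other. At E12.5 only Wnt4, a signal of the ovarian lineage, was called between the sexes among these, and it was lower in XY, with differences of -2.94 at 1441687_at and -2.25 at 1450782_at (limma adjusted p = 0.0019 and 0.0036). Over the 12 arrays the genes whose pattern was most like that of Cela3b 1437326_x_at, by Pearson r, were Clu (0.963), Pink1 (0.961), Mboat2 (0.959), Shtn1 (0.959) and Gpx7 (0.948). For Cpa1 they were Cav1 (0.973), Pck2 (0.961) and Prune2 (0.960), and for Ctrb1 they were Tpp2 (0.925), Kcnh1 (0.915) and Zar1 (0.896), which were looked up after the values of Cpa1 and Ctrb1 were seen. These correlations describe arrays that share the same 4 groups.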

How the data were processed

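Per the labels' protocols, a PicoPure kit gave the RNA, TargetAmp amplified it over 2 rounds, and biotin was the label. The authors deposited 1 table of log2 values per probe set and array. The base is taken from the largest value, 14.45, while how probe signals were summarised or normalized is not given in the sources used here. Of 45037 probe sets, 798 were blank on all arrays and 1 on some, which left 44238. Array medians ran from 6.494 to 6.592. A single gene symbol was held by 34328 probe sets, several by 850 and none by 9060, and symbols were updated through RefSeq (GRCm38.p6), which matched 34126.

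The package limma 3.58.1 (lmFit, eBayes; R 4.3.3) fitted differences on 4 group means over all 12 arrays (8 residual degrees of freedom), two-sided, with p-values adjusted over all probe sets, and tested on simulated data first. SE is limma's moderated standard error, and a fold is 2 raised to the difference. Every probe set of the 10 genes is named. From the other lists, the probe sets called between the sexes in the acinar and transcription factor lists are named, and further examples were picked with their values in view. The members and lists were chosen with earlier results of these data known. Alternatives were a filter for probe sets brighter than the median one, quantile and median scaling, a trended variance prior, array weights, the pool number as a block, the compared arrays alone, and each array left out.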

Additional observations from a re-analysis of the deposited data

Results flagged for a closer look

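For the pancreatic lipase-related gene Pnliprp1 (1415777_at) the change from E11.5 to E12.5 differed between the sexes by limma's interaction test. The day change was 0.95 in XX and -1.76 in XY, so the difference between them was -2.70 on the log2 scale (95% interval -3.79 to -1.61; limma adjusted p = 0.024). In XX the E12.5 pools lay above the E11.5 pools and in XY below them. Pnliprp1 gave the 1 call in this test among the 40 probe sets of the other acinar secretory genes, where 1.75% of all probe sets were called. The call was lost without XY E11.5 pool 2, any 1 of the XX E12.5 pools, XY E12.5 pool 1 or XY E12.5 pool 3, with differences of -2.51 to -2.76 and limma adjusted p up to 0.0661. The genes Cpa1 and Pnliprp1 were both lower in XY E12.5, and whether they share a source was not tested. XX E11.5 pool 2, which stood apart in the marker lists, had the lowest Pnliprp1 signal of the XX E11.5 pools (10.83, against 12.04 and 12.33). Over the 12 fits that left out 1 array, the Pnliprp1 difference between the day changes ran from -3.0 to -2.25. With 3 pools per group, no pool was tested as an outlier.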

How the results depend on the processing

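Between the sexes at E12.5, 3 of 18 member probe sets were called, against 1 with the pool number as a replicate block, 5 with the compared arrays alone, 4 with only probe sets brighter than the median one, 4 with array weights, 2 with a trended prior, and 1 to 3 when 1 array was left out. Cela3b 1435611_x_at was the call gained with the brightness filter (limma adjusted p = 0.0373) and with array weights (0.0247). The replicate block gave limma adjusted p = 0.0501 for Cela3b 1415884_at and 0.0831 for Ctrb1, and a trended prior gave 0.0504 for Ctrb1. At E11.5 the count was 0 in every alternative. For the difference between the day changes the count of 0 became 1 (Cpa1) with only probe sets brighter than the median one and with array weights, and 0 to 1 when 1 array was left out. The difference between the day changes turned sign in some fits that left out 1 array, with a range of -0.10 to 1.01 for Cela3b 1437326_x_at and of -0.29 to 0.96 for the probe set shared with Cela3a. The cause of these shifts was not tested, except that the compared arrays alone estimate the spread from 6 arrays. The replicate block also ended the call of the Pnliprp1 day change difference (limma adjusted p = 0.0632). Deviations of same-number pools of different groups correlated at -0.398 to 0.235, and those of other-number pools at -0.36 to 0.396. Between XX and XY at E12.5, same-number pools correlated at 0.223, 0.033 and 0.04, and other-number pools at -0.165 to 0.104. These values do not settle whether a pool number pairs samples. That brightness filter left 7 of the 18. Without detection calls, a lack of change in the dim probe sets is open to their reading background only.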
